A study of Homo sapiens with 83 samples.

Results

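Notch signaling passes between touching cells. A Jagged or Delta-like ligand on one cell binds a NOTCH receptor on its neighbor, the receptor is cut in the membrane by gamma-secretase, and the freed intracellular domain enters the nucleus. There it joins the DNA-binding protein RBPJ and a Mastermind coactivator to switch on the HES and HEY repressors. In the nervous system and in neuroblastoma this pathway is known for setting the choice between progenitor and differentiated states. The 10 genes followed here were 3 receptors (NOTCH1, NOTCH2, NOTCH3), 3 ligands (JAG1, JAG2, DLL1), the coactivator MAML2 and 3 target repressors (HES1, HEY1, HEYL), taken by gene symbol from a table of 60237 genes. Each symbol matched 1 entry.

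Levels were given as TPM, a length-corrected share of all transcripts in a library that sums to 1000000, from polyadenylated RNA of 2 human neuroblastoma lines carrying N-MYC-ER, an N-MYC protein fused to an estrogen receptor domain that 4-hydroxytamoxifen activates. MYC-ON cultures received 4-hydroxytamoxifen and MYC-OFF cultures received ethanol, and every culture then received dexamethasone to entrain its clock. Cells were collected every 4 h, at circadian times (CT, hours after dexamethasone) 24 to 76. SHEP had 2 replicate series, giving 28 MYC-OFF and 28 MYC-ON libraries, and SKNAS had 1 series here, with 14 MYC-OFF libraries and 13 MYC-ON libraries that ended at CT72. The 83 libraries held no untreated parental cells, so an effect of 4-hydroxytamoxifen apart from N-MYC-ER cannot be told apart from MYC activation. The time points of a series served as the replicates of a group, so p-values measured the spread between these libraries, which may be technical.

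The lines were checked against neuroblastoma state markers. Of 10 adrenergic genes, 2 averaged 1 TPM or more in either SHEP group, and in SKNAS 6 did so in MYC-OFF and 5 in MYC-ON. The summed adrenergic list had SKNAS medians of 540 TPM (MYC-OFF, 265 to 619) and 182 TPM (MYC-ON, 82.9 to 261), with no overlap, against 33 and 46.2 TPM in SHEP. PHOX2A had a median of 0 in SHEP and SKNAS medians of 235 TPM (MYC-OFF) and 64.3 TPM (MYC-ON), again with no overlap, and GATA3 had SKNAS medians of 66.3 and 14.7 TPM, while TFAP2B was listed at 0 in every SKNAS library. The mesenchymal list was at 1 TPM or more for 9 or 10 of 10 genes in all groups. Its sum had SHEP medians of 7294 TPM (MYC-OFF, 6617 to 8436) and 4896 TPM (MYC-ON, 4400 to 5658), with no overlap. In SKNAS the medians were 2423 and 2056 TPM, with overlapping ranges. Its genes did not move alike in SHEP: the median of COL1A1 went from 2679 to 789 TPM, that of VIM from 3393 to 3425 TPM and that of PRRX1 from 0.501 to 3.73 TPM. Among 8 markers of blood, endothelial and epithelial cells, PTPRC, the leukocyte phosphatase CD45, had SKNAS medians of 94.5 TPM (MYC-OFF) and 17.7 TPM (MYC-ON) while CD3E was at 0 in all SKNAS libraries. CD68, a lysosomal marker of macrophages, had SKNAS medians of 138 and 50.8 TPM, and EPCAM, an epithelial adhesion protein, went the other way, from 0.0708 to 1.10 TPM. The summed list, most of it the keratin KRT8 (SKNAS medians 311 and 139 TPM), ran from 295 to 682 TPM in the MYC-OFF libraries of SKNAS and from 153 to 257 TPM in the MYC-ON libraries. Markers thus moved with MYC state in both lines, in SKNAS along with the changes of the Notch genes. Their part in the results below was not tested. MYCN, which includes any transgene transcript, had medians of 560 TPM (MYC-OFF) and 353 TPM (MYC-ON) in SHEP, and of 612 TPM (MYC-OFF) and 309 TPM (MYC-ON) in SKNAS. N-MYC-ER is switched at the protein level, so this did not check the labels.

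In a RefSeq promoter table for GRCh38.p14, 8 of the 10 genes matched, all but HEY1 and DLL1, and the 250 bases before each annotated start were searched on both strands. The letters CACGTG, the E-box bound by MYC with MAX, were in none of the 8 windows and in 6.34% of all 35116 promoters of that length. TGGGAA, the core letters bound by RBPJ, was in HES1 and HEYL, 2 matches each, against 20.8% of all promoters with at least 1 match and 2.9% with 2 or more. CACNAG, the N-box bound by HES repressors, matched 3 times in HES1, 2 times in MAML2 and 1 time in NOTCH3, against 32% of all promoters with at least 1. No match overlapped another. Shown are the target that was higher in MYC-ON in both lines, a target that was lower in SKNAS, and the ligand with the largest change of the 10, with TGGGAA or its reverse complement in capitals and all else in lower case.
HES1 (chr3:194135898-194136147, plus strand): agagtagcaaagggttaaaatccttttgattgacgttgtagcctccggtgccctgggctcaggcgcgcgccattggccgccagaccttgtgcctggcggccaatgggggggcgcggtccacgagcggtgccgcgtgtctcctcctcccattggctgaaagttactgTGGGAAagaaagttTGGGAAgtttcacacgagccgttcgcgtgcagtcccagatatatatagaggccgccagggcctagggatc
HEYL (chr1:39639644-39639893, minus strand): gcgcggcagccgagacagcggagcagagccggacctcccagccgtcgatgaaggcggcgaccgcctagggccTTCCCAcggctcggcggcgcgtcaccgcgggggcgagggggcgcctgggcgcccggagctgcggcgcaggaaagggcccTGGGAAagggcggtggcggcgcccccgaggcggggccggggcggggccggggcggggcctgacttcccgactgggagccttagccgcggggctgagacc
JAG2 (chr14:105168777-105169026, minus strand): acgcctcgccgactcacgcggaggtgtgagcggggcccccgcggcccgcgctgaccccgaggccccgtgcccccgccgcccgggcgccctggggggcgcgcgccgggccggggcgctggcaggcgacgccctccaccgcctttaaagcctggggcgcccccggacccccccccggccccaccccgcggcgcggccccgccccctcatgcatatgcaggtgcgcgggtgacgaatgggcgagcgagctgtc
In HES1 both matches lay on the coding strand, 84 to 79 and 70 to 65 bases before the start. In HEYL 1 lay on the opposite strand, 178 to 173 bases before the start, and 1 on the coding strand, 99 to 94 bases before it. A match is a description of these letters, and a window without one says only that the letters are not in it.

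MYC state and line changed the Notch genes in different ways. HES1 was higher in MYC-ON in both lines, and MAML2 was lower in both. JAG2 was near 1 TPM in SKNAS MYC-OFF and at a median of 61.5 TPM in SKNAS MYC-ON, but did not exceed 1.16 TPM in any SHEP library. NOTCH3, JAG1, HEY1 and HEYL were lower in SKNAS MYC-ON, and NOTCH2 was the abundant receptor in SHEP and close to 0 in SKNAS. Differences were tested with limma on log2(TPM + 1), which understates the change of low genes, with CT as a factor, and a call needed both a limma adjusted p no higher than 0.05 and an absolute log2 change no smaller than 0.15. The depth of each library is unknown from TPM. RNA came from whole cultures, so fewer cells transcribing a gene and less RNA per cell cannot be told apart.

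**Figure D1:**
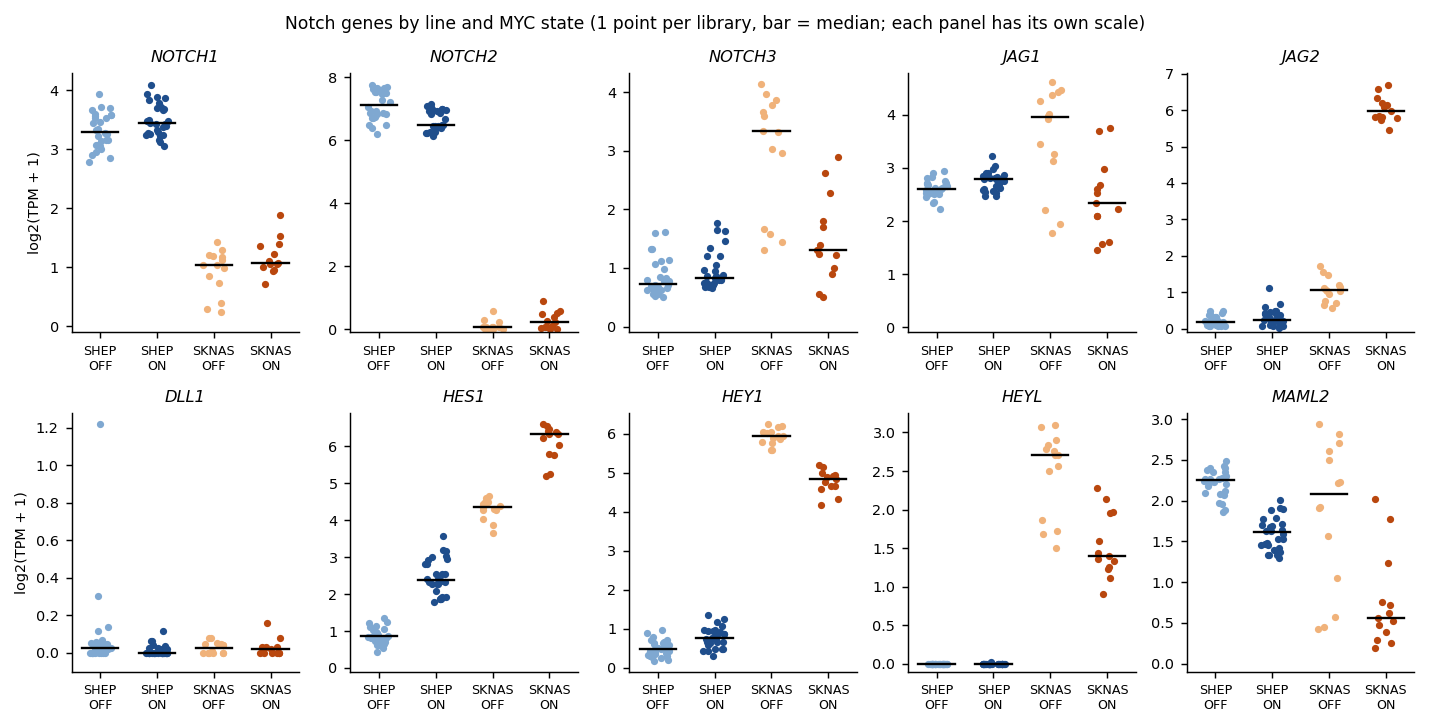
Level of each of the 10 Notch genes as log2(TPM + 1), with 1 point per library and a bar at the group median, for SHEP (28 MYC-OFF and 28 MYC-ON libraries) and SKNAS (14 and 13). HES1 has 4 groups with no overlap between any of them, JAG2 was high in SKNAS MYC-ON alone, and NOTCH2 was high in SHEP alone.

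Of the 10 genes, 5 averaged at least 1 TPM over the SHEP libraries and were tested there. All 5 were called, NOTCH1, JAG1 and HES1 higher and NOTCH2 and MAML2 lower, where 71.8% of all 14362 genes tested in SHEP were called, 33% higher and 38.9% lower. NOTCH3, JAG2, DLL1, HEY1 and HEYL were under that mean and are given by their values. In SKNAS 8 were tested and 7 were called, JAG2 and HES1 higher and NOTCH3, JAG1, HEY1, HEYL and MAML2 lower, where 48.1% of 13886 genes were called, 13.7% higher and 34.4% lower. NOTCH2 and DLL1 were not tested in SKNAS. HES1 in SHEP passed the mean only through MYC-ON, MAML2 in SKNAS only through MYC-OFF and NOTCH1 in SKNAS only through MYC-ON, so these counts describe the genes that could be tested and are no support for a pattern. The libraries of the 2 states did not overlap for 1 tested member in SHEP (HES1, background 12.5% of genes tested) and for 3 in SKNAS (JAG2, HES1 and HEY1, background 4.41%).

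The SKNAS values came with a difference in library scale. The median log2(TPM + 1) over the genes tested ran from 2.97 to 4.38 in SKNAS MYC-OFF libraries (median 4.13) and from 2.76 to 4.25 in MYC-ON (median 3.57), whereas all SHEP libraries lay between 3.93 and 4.17. The median change of all tested genes was −0.29 in SKNAS, and it was 0.03 after median-of-ratios rescaling and 0.01 with the library median as a covariate, while in SHEP it was −0.04. SKNAS changes of the members are therefore given as deposited and also with both corrections, and what set the library scale was not tested. In SKNAS 10 MYC-OFF libraries of 14 had a median of at least 3.8, as did 3 MYC-ON libraries of 13, and levels within those libraries are given where they bear on a gene. Among them only CT32 and CT44 had a library of each state. With CT as a factor, a change fitted within those libraries rests on these CTs alone. A missing call there therefore does not show that a change was absent.

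**Figure D2:**
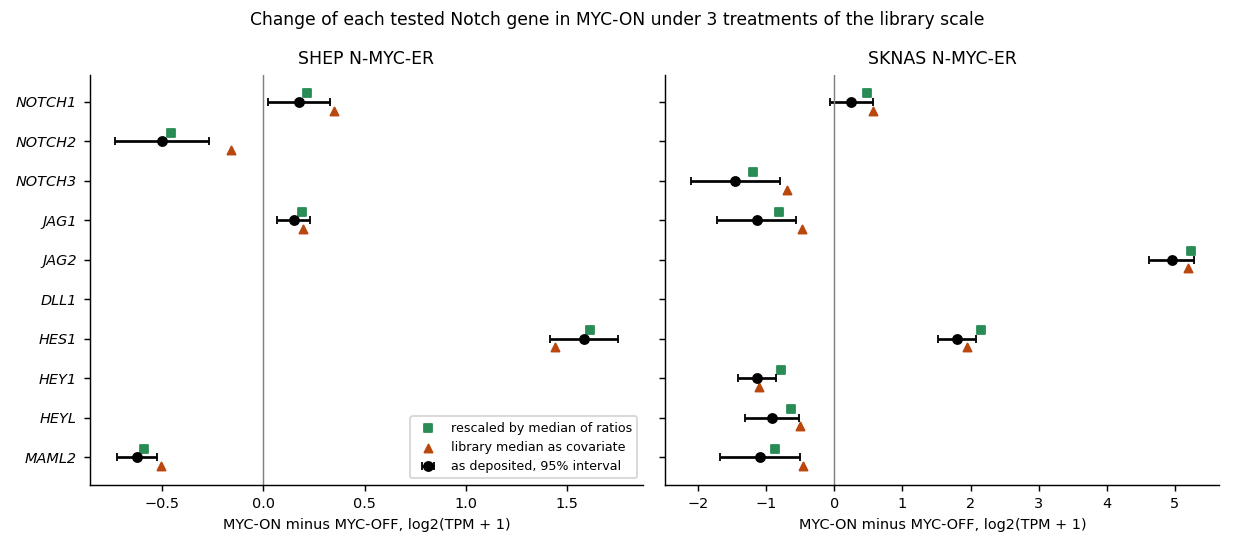
Change from MYC-OFF to MYC-ON on the log2(TPM + 1) scale for each tested Notch gene in SHEP (left) and SKNAS (right), as deposited with its 95% interval (circles), after rescaling (squares) and with the library median as a covariate (triangles). The x axes differ. JAG2 in SKNAS and HES1 in both lines moved little between the 3 treatments, and NOTCH3, JAG1, HEYL and MAML2 in SKNAS shrank toward 0 with the covariate.

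Among the receptors, NOTCH2 (ENSG00000134250, chr1:119911553-120100779) was the main one in SHEP. It ran from 72.8 to 212 TPM (median 139) in SHEP MYC-OFF and from 69.7 to 141 TPM (median 88.3) in MYC-ON. The ranges overlapped, and MYC-ON was lower in 27 of 28 pairs at the same series and CT. The change was −0.50 (SE 0.12, limma adjusted p = 1.38e-04), and with the library median as a covariate it was −0.16 and was no longer called (limma adjusted p = 0.238). Neither fit had a series term, so the covariate could also take up the difference in level between the series. With a replicate block and no covariate the call was kept. Within series 1 the means were 105 ± 16.4 (SD, n = 14) in MYC-OFF and 81 ± 6.41 (SD, n = 14) in MYC-ON, and within series 2 they were 187 ± 19.2 and 120 ± 14.2, so the series differed in level while the direction was shared. With series means as replicates, in a fit that did not pair the states within a series, NOTCH2 was not called. In SKNAS no library exceeded 0.879 TPM. Its near-identical NOTCH2NL copies can share reads with it, so its level is uncertain. In SHEP the 4 copies summed to a median of 19.4 TPM in MYC-OFF and 15 TPM in MYC-ON.

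NOTCH1 (ENSG00000148400, chr9:136494433-136546048) was the second receptor in SHEP, from 5.89 to 14.3 TPM (median 8.84) in MYC-OFF and from 7.29 to 16.1 TPM (median 9.82) in MYC-ON. The groups overlapped almost fully, with MYC-ON higher in 22 of 28 pairs and a change of 0.18 (SE 0.08, limma adjusted p = 0.0319). That call was lost with series 1 left out (0.12) and without any 1 of 6 libraries, the MYC-OFF series 1 libraries at CT32, CT36 and CT60 and the MYC-ON series 2 libraries at CT32, CT36 and CT48. It was lost with no filter on low values as well (limma adjusted p = 0.0659). In SKNAS it ran from 0.19 to 1.68 TPM (median 1.06) in MYC-OFF and from 0.65 to 2.68 TPM (median 1.11) in MYC-ON. Its level moved with the library median: the 4 MYC-OFF libraries below 3.8 held 0.19 to 0.667 TPM and the other 10 held 0.804 to 1.68 TPM. In MYC-ON the 10 below 3.8 held 0.65 to 1.64 TPM and the other 3 held 1.57 to 2.68 TPM. The SKNAS change of 0.25 was not called (95% interval −0.06 to 0.57, limma adjusted p = 0.169), but it was 0.48 after rescaling and 0.56 with the covariate, both called. Within the libraries at or above 3.8 it was 0.54 and was not called (limma adjusted p = 0.339). The MYC effect on NOTCH1 did not differ detectably between lines (difference 0.08, 95% interval −0.21 to 0.37).

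NOTCH3 (ENSG00000074181, chr19:15159038-15200995) was the leading receptor of SKNAS MYC-OFF, from 1.46 to 16.6 TPM (median 9.03), against 0.411 to 6.39 TPM (median 1.49) in SKNAS MYC-ON. Of 13 pairs at the same CT, 11 were lower in MYC-ON, and 6 MYC-ON libraries lay below all MYC-OFF libraries. The change was −1.45 (SE 0.31, limma adjusted p = 0.00128), −1.19 after rescaling and −0.70 with the covariate. Levels moved with the library median: the 4 MYC-OFF libraries below 3.8 held 1.46 to 2.15 TPM and the 10 at or above it held 6.8 to 16.6 TPM, while the 3 MYC-ON libraries at or above it held 3.86 to 6.39 TPM. Within the libraries at or above it the change, which rests on CT32 and CT44 alone, was −0.74 and was not called (limma adjusted p = 0.175). In SHEP the range was 0.415 to 2.06 TPM in MYC-OFF and 0.577 to 2.39 TPM in MYC-ON.

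The receptor makeup, each gene's share of the summed NOTCH1 to NOTCH4 TPM within a library, is unchanged by any 1 scale factor per library. The SKNAS library scale was not 1 such factor. In SKNAS MYC-OFF, mean NOTCH3 was 1.83 TPM in libraries with a median below 3.8 and 11.2 TPM in the others. Mean HEY1 there was 59.6 and 61.2 TPM. SKNAS shares can therefore still carry the library scale, and they were not compared between states within libraries of similar median. In SHEP the NOTCH2 share was 86.7% to 95% in MYC-OFF (median 93.2%) and 85.8% to 91.9% in MYC-ON (median 89.1%). In SKNAS the NOTCH3 share was 60% to 88.7% in MYC-OFF (median 83%) and 16.4% to 64.8% in MYC-ON (median 41.1%), and the NOTCH1 share was 7.73% to 18.6% (median 9.5%) and 18.1% to 44.5% (median 28.4%). The 4 receptors together had a median of 148 TPM in SHEP MYC-OFF and 99.4 TPM in SHEP MYC-ON. In SKNAS they summed to a median of 11 TPM in MYC-OFF and 3.7 TPM in MYC-ON, so the SKNAS shares rest on low levels.

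**Figure D3:**
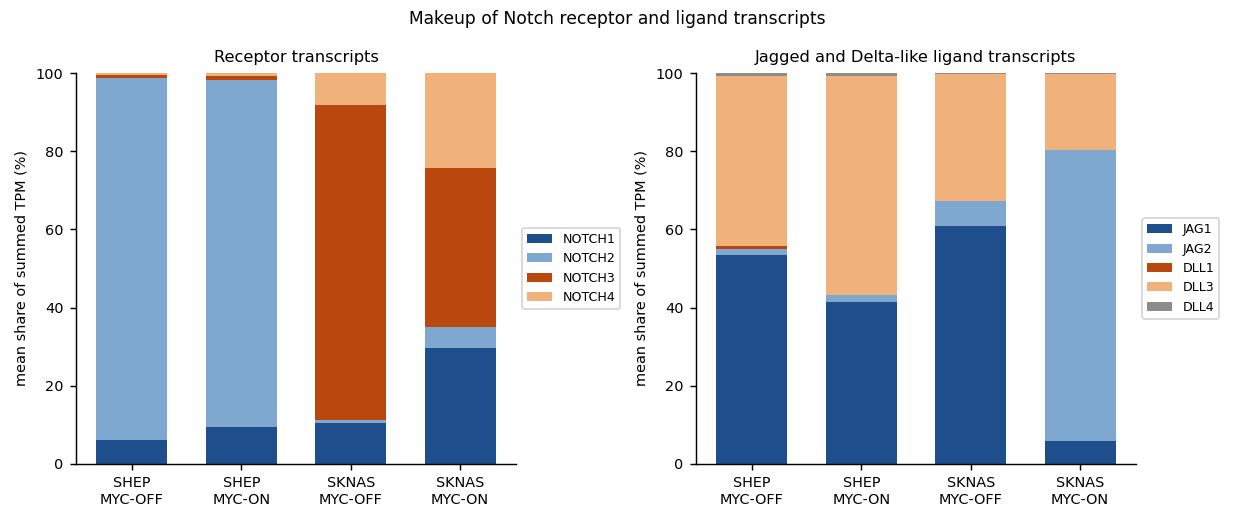
Mean share of each gene in the summed TPM of the 4 NOTCH receptors (left) and of the Jagged and Delta-like ligands (right), in % within a library, averaged over the libraries of each group. NOTCH2 fills the SHEP receptor bars, NOTCH3 leads in SKNAS MYC-OFF, and JAG2 fills 74.5% of the ligand bar in SKNAS MYC-ON.

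Of the ligands, JAG2 (ENSG00000184916, chr14:105140982-105168824), which binds the same receptors as JAG1, changed most. In SKNAS MYC-OFF it ran from 0.471 to 2.31 TPM (median 1.07), and in SKNAS MYC-ON from 43 to 101.4 TPM (median 61.5). The groups did not overlap, all 13 pairs were higher in MYC-ON, and the mean TPM was 56.8 times as high. The change was 4.95 (SE 0.16, limma adjusted p = 2.56e-11), 5.23 after rescaling, 5.20 with the covariate and 5.00 within the libraries at or above a median of 3.8. SHEP libraries ran from 0.0457 to 0.409 TPM (median 0.132) in MYC-OFF and from 0.0225 to 1.16 TPM (median 0.18) in MYC-ON, too low to be tested. The difference in MYC effect between lines was 4.85 (SE 0.12, limma adjusted p = 2.07e-40). JAG2 entered that test only through SKNAS, and its SHEP level left little room for a change on the log2(TPM + 1) scale. The difference therefore largely restates the SKNAS change, and its p-value is no support for a difference between lines.

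JAG1 (ENSG00000101384, chr20:10637684-10673999) went in opposite directions in the lines. In SHEP it ran from 3.69 to 6.74 TPM (median 5.08) in MYC-OFF and from 4.56 to 8.34 TPM (median 5.89) in MYC-ON, higher in 24 of 28 pairs with overlapping ranges. That change, 0.15 (SE 0.04, limma adjusted p = 8.87e-04), sat at the minimum size for a call: it fell under it in 31 of 56 refits that each left out 1 library, with values from 0.14 to 0.17, and was 0.09 with series 2 left out. In SKNAS JAG1 ran from 2.43 to 23.7 TPM (median 14.5) in MYC-OFF and from 1.75 to 12.4 TPM (median 4.09) in MYC-ON. It was lower in 11 of 13 pairs, by −1.14 (SE 0.27, limma adjusted p = 0.0031), −0.82 after rescaling and −0.48 with the covariate. Like NOTCH3, it was low in the 4 MYC-OFF libraries below a median of 3.8, at 2.43 to 7.74 TPM against 8.63 to 23.7 TPM in the other 10. The 3 MYC-ON libraries at or above 3.8 held 6.87 to 12.4 TPM, and within the libraries at or above it the change of −0.66 was not called (limma adjusted p = 0.236). The difference between lines was −1.29 (SE 0.18, limma adjusted p = 1.62e-08). That fit shared its estimate of spread over both lines, so its SE lay below the 0.27 of SKNAS alone. The p-value is therefore too small for a gene that varied this widely in SKNAS.

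DLL1 (ENSG00000198719, chr6:170282206-170306565), a Delta-like ligand, was at or near 0 throughout. Libraries that listed it at 0 numbered 9 of the 28 MYC-OFF and 18 of the 28 MYC-ON ones for SHEP, and 6 of the 14 MYC-OFF and 6 of the 13 MYC-ON ones for SKNAS, and 1 SHEP MYC-OFF library reached 1.33 TPM. As shares of the summed JAG1, JAG2, DLL1, DLL3 and DLL4 TPM, JAG2 made up 1.82% to 12.7% (median 6.19%) in SKNAS MYC-OFF libraries against 69.6% to 79.5% (median 74.2%) in SKNAS MYC-ON libraries. The JAG1 share there was 23.5% to 79.4% (median 66.1%) and 2.03% to 13.6% (median 4.87%), with no overlap. A rise of JAG2 in the sum lowers the JAG1 share even at an unchanged JAG1 level, so this separation is not a trait of JAG1. The JAG1 levels themselves overlapped, at 2.43 to 23.7 TPM and 1.75 to 12.4 TPM. In SHEP JAG1 and DLL3, an atypical ligand, made up nearly all ligand transcripts in both states, JAG1 at a median of 53.2% in MYC-OFF and 40.6% in MYC-ON. Its median level there was higher in MYC-ON, at 5.89 against 5.08 TPM. The summed ligand level had medians of 9.58 and 13.9 TPM in SHEP MYC-OFF and MYC-ON, and of 21.4 and 88.1 TPM in SKNAS.

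**Figure D4:**
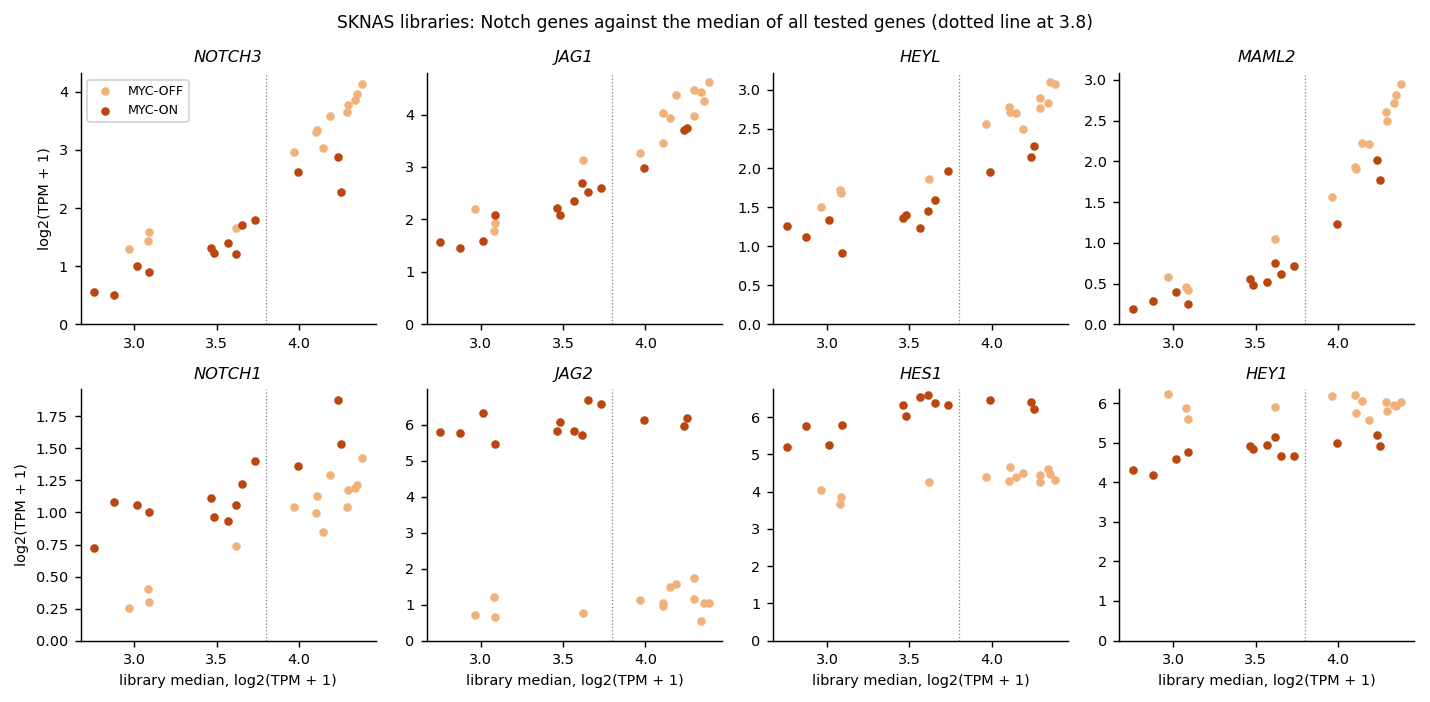
Level of the 8 Notch genes tested in SKNAS, as log2(TPM + 1), against the library's median log2(TPM + 1) over all tested genes, 1 point per library. The dotted line marks 3.8. NOTCH1, NOTCH3, JAG1, HEYL and MAML2 climb with the library median in both states, and JAG2, HES1 and HEY1 keep their MYC-ON and MYC-OFF libraries apart over the whole range. HES1 was also lower in the MYC-OFF libraries below 3.8 than in the others.

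MAML2 (ENSG00000184384, chr11:95976598-96343195), a Mastermind coactivator of the nuclear Notch complex, fell with MYC activation in SHEP and in SKNAS. SHEP libraries ran from 2.63 to 4.58 TPM (median 3.75) in MYC-OFF and from 1.46 to 3.03 TPM (median 2.05) in MYC-ON. All 28 pairs were lower and 24 MYC-ON libraries lay below every MYC-OFF library, with a change of −0.62 (SE 0.05, limma adjusted p = 1.62e-15). SKNAS libraries ran from 0.338 to 6.69 TPM (median 3.22) in MYC-OFF and from 0.144 to 3.05 TPM (median 0.47) in MYC-ON, lower in 10 of 13 pairs. The SKNAS change was −1.09 (SE 0.28, limma adjusted p = 0.00459), −0.88 after rescaling and −0.46 with the covariate. Here too the 4 MYC-OFF libraries below a median of 3.8 were low, at 0.338 to 1.07 TPM against 1.95 to 6.69 TPM in the other 10, and within the libraries at or above it the change of −0.64 was not called (limma adjusted p = 0.331). The difference between lines, −0.47 (limma adjusted p = 0.0309), was 0.08 with the covariate. Its call was also lost with no filter on low values (limma adjusted p = 0.0612) and with either SHEP series left out (limma adjusted p = 0.187 without series 1 and 0.22 without series 2).

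HES1 (ENSG00000114315, chr3:194136148-194138732), the best known Notch target and a repressor of neuronal differentiation genes, rose in both lines. SHEP MYC-OFF libraries ran from 0.353 to 1.57 TPM (median 0.813) and SHEP MYC-ON libraries from 2.46 to 10.8 TPM (median 4.18). SKNAS MYC-OFF libraries ran from 11.7 to 24.4 TPM (median 19.5) and SKNAS MYC-ON libraries from 35.5 to 96 TPM (median 78.9). No 2 of the 4 groups overlapped, and MYC-ON exceeded MYC-OFF in every same-CT pair, 28 in SHEP and 13 in SKNAS. The mean TPM was 5.64 times as high in SHEP and 3.71 times as high in SKNAS. On the log2(TPM + 1) scale the SHEP change was 1.59 (SE 0.08, limma adjusted p = 7.72e-22). The SKNAS change was 1.80 (SE 0.13, limma adjusted p = 7.07e-08), and it was 2.16 after rescaling, 1.95 with the covariate and 1.88 within the libraries at or above a median of 3.8. HES1 also moved with the library median: the 4 MYC-OFF libraries below 3.8 held 11.7 to 18.3 TPM and the other 10 held 18.3 to 24.4 TPM. In MYC-ON the 10 below 3.8 held 35.5 to 96 TPM and the other 3 held 73.5 to 87.1 TPM. The difference between lines, 0.21, was not called (95% interval −0.09 to 0.51, limma adjusted p = 0.229). It was 0.54 after rescaling and 0.51 with the covariate, both called, and −0.47 with a pseudocount of 0.1, so its sign depended on how low values were treated.

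HEY1 (ENSG00000164683, chr8:79762371-79767857), a Notch-responsive repressor of the HEY family, moved the other way in SKNAS. It ran from 46.5 to 74.6 TPM (median 60.2) in SKNAS MYC-OFF and from 17.1 to 35.7 TPM (median 27.6) in MYC-ON, with no overlap and all 13 pairs lower. The change was −1.14 (SE 0.13, limma adjusted p = 5.78e-06), −0.78 after rescaling and −1.10 with the covariate. The 4 MYC-OFF libraries below a median of 3.8 held 47.3 to 74.6 TPM and the other 10 held 46.5 to 72.3 TPM, so unlike NOTCH3 its MYC-OFF range was alike in both. Within the libraries at or above 3.8 the change of −0.80 was not called (limma adjusted p = 0.139). SHEP libraries held 0.136 to 0.97 TPM (median 0.395) in MYC-OFF and 0.229 to 1.57 TPM (median 0.703) in MYC-ON, higher in 21 of 28 pairs. The SHEP change, 0.28, was below the level for testing and was called with no filter on low values (limma adjusted p = 3.50e-04). The difference between lines was −1.42 (SE 0.12, limma adjusted p = 7.80e-15). HEY1 entered that test only through SKNAS, so the difference rests mainly on the SKNAS change.

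HEYL (ENSG00000163909, chr1:39623435-39639643), a further HEY family repressor, was found in SKNAS. It ran from 1.83 to 7.59 TPM (median 5.54) in SKNAS MYC-OFF and from 0.882 to 3.85 TPM (median 1.64) in MYC-ON, lower in 12 of 13 pairs. The change was −0.92 (SE 0.19, limma adjusted p = 8.93e-04), −0.64 after rescaling and −0.50 with the covariate. MYC-OFF libraries below a median of 3.8 held 1.83 to 2.64 TPM and the others 4.64 to 7.59 TPM, and the 3 MYC-ON libraries at or above it held 2.87 to 3.85 TPM. Within the libraries at or above 3.8 the change of −0.76 was not called (limma adjusted p = 0.157). In SHEP HEYL was listed at 0 in all 28 MYC-OFF and 27 of 28 MYC-ON libraries. HES1 and HEYL both carry TGGGAA in the windows printed above, and over all SKNAS libraries HES1 was higher and HEYL lower in MYC-ON. Any link between these letters and the changes was not tested.

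Levels were also compared between the lines. In MYC-OFF, 9 of the 10 were tested between SKNAS and SHEP and all 9 were called, 6 higher in SKNAS (HEY1 5.43, HES1 3.43, HEYL 2.48, NOTCH3 2.13, JAG1 0.95 and JAG2 0.87, log2 differences by limma) and 3 lower (NOTCH2 −7.03, NOTCH1 −2.39 and MAML2 −0.36). Across all 15942 genes tested 79.5% were called, 33.6% higher and 46% lower, so a call between the lines was the usual outcome for any gene. HEYL, JAG2, HEY1, NOTCH3 and NOTCH2 passed the filter only through the line where they were high. In MYC-ON 8 of 9 were called, where 84.9% of all genes were, 28.6% higher and 56.2% lower. The MYC-ON differences were 5.74 for JAG2, 4.01 for HEY1, 3.67 for HES1, 1.54 for HEYL and 0.54 for NOTCH3, and −6.35 for NOTCH2, −2.30 for NOTCH1 and −0.84 for MAML2. JAG1 was not called in MYC-ON (−0.32, 95% interval −0.65 to 0.02). The MAML2 differences in both states and the JAG1 difference in MYC-ON changed sign with the library median as a covariate, and the JAG1 difference did so after rescaling too.

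A test of whether the MYC effect differed between the lines called 7 of 9 Notch genes, where 51.6% of all genes were called, 13.5% with a larger value in SKNAS and 38% with a smaller one. JAG2 and NOTCH2 were the 2 with a larger value in SKNAS, and NOTCH3, JAG1, HEY1, HEYL and MAML2 the 5 with a smaller one. The test shares its estimate of spread over both lines, so it understates the spread in SKNAS of genes that varied more there. JAG2, NOTCH3, HEY1 and HEYL passed the filter only through SKNAS and NOTCH2 only through SHEP, so their calls rest mainly on that line. For NOTCH2, lower in SHEP MYC-ON and near 0 in both SKNAS groups, the difference was 0.68 (limma adjusted p = 0.0021), and it was not called with the library median as a covariate (0.37, limma adjusted p = 0.104). These fits had no series term either.

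Beyond the 10 genes, 49 further genes of the pathway were listed by role. In SHEP 39 were tested, with 11 higher, 23 lower and 5 not called (33% higher and 38.9% lower over all genes), and their median change was −0.33 against −0.04 for all genes tested. In SKNAS 38 were tested, with 6 higher, 13 lower and 19 not called (13.7% higher and 34.4% lower over all genes), and a median of −0.42 against −0.29 for all genes. The SKNAS split was 9 higher and 12 lower after rescaling and 13 higher and 13 lower with the covariate, and the SHEP split 13 and 20, and 12 and 19. Of 9 genes for proteolytic release of the receptor, 8 were lower and 0 higher in SHEP and 7 were lower and 0 higher in SKNAS (limma). At an unadjusted p under 0.05 these were 8 lower and 1 higher in SHEP and 8 lower and 0 higher in SKNAS. After rescaling, and likewise with the covariate, SHEP had 7 lower and 1 higher and SKNAS 6 lower and 0 higher. Of 10 nuclear complex genes, 2 were higher and 5 lower in SHEP, and 0 were higher and 1 lower among 9 tested in SKNAS (0 and 4 unadjusted). With the covariate SKNAS had 4 higher and 1 lower, and SHEP was even with 3 higher and 3 lower. Rescaling gave 1 higher and 1 lower in SKNAS and 3 higher and 5 lower in SHEP.

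Among those 49 genes, 10 were called in the same direction in both lines and by at least 1.5 times in each on the scale of the test. HES4, a HES family repressor, rose by 1.73 in SHEP, from a median of 18.4 to 60.3 TPM, and by 2.45 in SKNAS, from 0.534 to 7.72 TPM. NRARP, a Notch target that dampens the pathway, rose by 0.85 in SHEP, from 0.477 to 1.66 TPM, and by 2.25 in SKNAS, from 0.432 to 5.38 TPM. Neither gene had overlapping MYC-ON and MYC-OFF libraries in either line, as held for 12.5% of genes tested in SHEP and 4.41% in SKNAS. NRARP in both lines and HES4 in SKNAS passed the mean filter only through MYC-ON, so this separation is no support for a pattern. DLL3 rose by 0.78 and 1.47. Among those lower in both were DNER, a noncanonical ligand (−1.23 in SHEP and −1.37 in SKNAS), the gamma-secretase subunits APH1B (−0.97 and −1.24) and NCSTN (−0.80 and −1.40), the receptor-processing protease FURIN (−0.82 and −1.31), the receptor glucosyltransferase POGLUT1 (−0.84 and −0.98) and the corepressor NCOR1 (−0.59 and −1.09). After rescaling the SKNAS values were 2.68 for HES4, 2.49 for NRARP, 1.80 for DLL3, −1.08 for DNER, −1.05 for NCSTN, −0.97 for FURIN, −0.66 for POGLUT1 and −0.73 for NCOR1. With the covariate they were 2.17, 2.41, 1.52, −1.11, −0.42, −0.58, −0.44 and −0.37 in the same order, and APH1B was at −1.06.

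Genes with opposite calls in the lines were LFNG and HES6. LFNG, a Fringe enzyme that modifies receptors and alters their response to Jagged and Delta-like ligands, had a median of 16.3 TPM in SHEP MYC-OFF and 6.78 TPM in MYC-ON (change −1.55), and 23.8 and 38.3 TPM in SKNAS (change 0.87, 1.25 after rescaling and 1.18 with the covariate). HES6, a HES family member that can oppose HES1, went from 21.5 to 16.6 TPM in SHEP (change −0.42) and from 11.5 to 54.6 TPM in SKNAS (change 2.31, 2.67 after rescaling and 2.42 with the covariate). The difference between lines was called for both, 2.42 for LFNG (limma adjusted p = 2.50e-12) and 2.73 for HES6 (limma adjusted p = 5.87e-21).

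Over the time course HES1 climbed in SHEP MYC-ON. At CT24 it was 3.81 TPM in series 1 and 2.78 TPM in series 2, at CT48 it was 2.65 and 2.80 TPM, and at CT76 it was 10.8 and 8.14 TPM. Its slope was 0.56 per 24 h on the log2(TPM + 1) scale (SE 0.08, limma adjusted p = 4.22e-07), and 0.56 with the covariate. JAG1 (0.14 per 24 h, limma adjusted p = 1.39e-04) and NOTCH3 (0.23 per 24 h, limma adjusted p = 0.0127) also rose in SHEP MYC-ON, and the NOTCH3 slope was not called with the covariate (0.16, limma adjusted p = 0.24). These were 3 of 6 Notch genes tested there, where 57.4% of all genes had a called slope. No Notch gene had a called slope in SHEP MYC-OFF (0 of 4 by limma, 1 at an unadjusted p under 0.05, background 15.9%), SKNAS MYC-OFF (0 of 7, 4 unadjusted, background 0%) or SKNAS MYC-ON (0 of 7, 3 unadjusted, background 0.112%). HES1 was not tested for a slope in SHEP MYC-OFF, where it stayed between 0.353 and 1.57 TPM, and whether its slope differed between states was not tested.

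**Figure D5:**
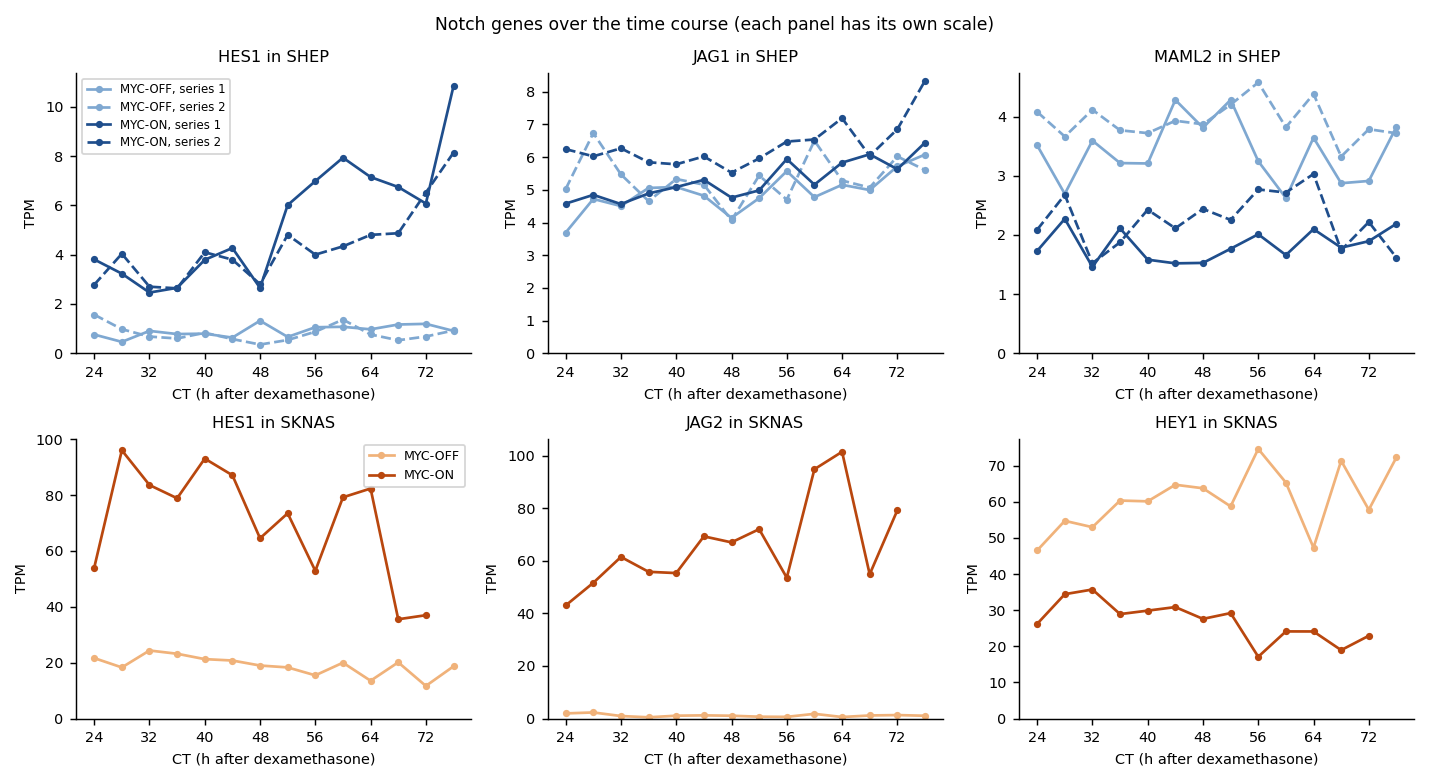
TPM against circadian time, in hours after dexamethasone, for HES1, JAG1 and MAML2 in SHEP (solid and dashed lines are series 1 and 2) and HES1, JAG2 and HEY1 in SKNAS (1 series), with MYC-OFF in the light and MYC-ON in the dark color. HES1 in SHEP MYC-ON climbs from 3.81 and 2.78 TPM at CT24 to 10.8 and 8.14 TPM at CT76, and JAG2 and HEY1 in SKNAS keep their states apart at every CT.

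A 24 h rhythm was asked of each group alone with a cosine and sine term by limma. No Notch gene was called. SHEP had 0 of 4 tested in MYC-OFF (background 0.0631% of all genes) and 0 of 6 in MYC-ON (background 0.014%), and SKNAS had 0 of 7 in each state (background 0% and 0%). At an unadjusted p under 0.05 there was 1, NOTCH2 in SHEP MYC-ON. A rhythm of another period or one that fades was not tested.

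The 3 genes whose pattern was most like that of HES1 over the 56 SHEP libraries were STK17A, PPM1J and EIF3D, with Pearson correlations of log2(TPM + 1) of 0.958, 0.956 and 0.947. Over the 27 SKNAS libraries their correlations with HES1 were 0.771, 0.951 and 0.799. The points share the MYC-ON and MYC-OFF split and the library scale. Within the 28 SHEP MYC-OFF libraries the values were 0.485, 0.154 and 0.24, and within the 28 MYC-ON libraries 0.792, 0.849 and 0.73.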

How the data were processed

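The deposited table held TPM per gene for 83 libraries. The authors quantified reads with Salmon 1.3.0 (also named in the submitters' processing notes) against a GRCh38 Gencode transcriptome and summed transcripts to genes, and each column sums to 1000000, so a rise of some genes lowers others and read depth is lost. Groups came from the sample titles. The members and gene lists were chosen with earlier results of these data known. limma 3.58.1 (R 4.3.3) was fitted to log2(TPM + 1) over all genes with a mean of at least 1 TPM, with CT as a factor, Benjamini-Hochberg adjustment over all genes tested, and calls at an adjusted p of at most 0.05 and an absolute log2 change of at least 0.15. limma stood in for the authors' count model because the values were TPM. The line comparisons used all 83 libraries with an estimate of spread shared by both lines, so p-values are too small for genes that varied more in SKNAS. The fits were tested on simulated data. All 10 members were named. Pathway genes were named when called in both lines in 1 direction by at least 1.5 times in each (at most 12) or called in opposite directions, and likeness was ranked for the member called in both lines with the lowest adjusted p in SHEP. Alternatives were a pseudocount of 0.1, no filter, median-of-ratios rescaling, the library median as a covariate, a replicate block, series means and left-out libraries. Series numbers in the labels mark replicate experiments and so pair the SHEP groups (correlation of the series' deviations between states 0.489). Gene coordinates are from Gencode on GRCh38 and upstream sequences from RefSeq (GRCh38.p14). HEY1 and DLL1 did not match the promoter table, and protein sequences were not used here. Some genes of the lists are not reported here. A second SKNAS series was not analysed here.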

Additional observations from a re-analysis of the deposited data

Results flagged for a closer look

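The limma test of the difference in MYC effect between the lines (SKNAS minus SHEP, log2) called 7 Notch genes. Values were 4.85 for JAG2, 0.68 for NOTCH2, −0.47 for MAML2, −0.92 for HEYL, −1.29 for JAG1, −1.42 for HEY1 and −1.58 for NOTCH3. The same test called 51.6% of all 15942 genes, 13.5% with a larger value in SKNAS and 38% with a smaller one. A call was therefore a common outcome for any gene. Its estimate of spread was shared by both lines, so p-values are too small for genes that varied more in SKNAS. JAG1 was called in both lines in opposite directions, with its SHEP call lost in 31 of 56 refits that each left out a library, and MAML2 was called lower in both. In SKNAS libraries with a median of at least 3.8 neither gene was called, in a fit whose changes rest on CT32 and CT44 alone. With the library median as a covariate the MAML2 difference changed sign and the NOTCH2 difference was not called. JAG2, NOTCH2, NOTCH3, HEY1 and HEYL each averaged under 1 TPM in the libraries of 1 of the lines, so their difference rests on the line with the higher level. The JAG2 difference largely restates the SKNAS change, and its p-value is no support for a difference between lines.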

How the results depend on the processing

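Of 230 alternative values for single Notch genes, 202 kept their direction and side of the threshold, and 6 reversed. These include NOTCH3 and HEY1 in SHEP, which could not be called wherever the filter on low values was kept. The HES1 difference in MYC effect between lines became −0.47 with a pseudocount of 0.1. With the library median as a covariate, MAML2 reversed to 0.081 for that difference, 0.088 for SKNAS against SHEP in MYC-OFF and 0.14 in MYC-ON, and JAG1 in MYC-ON reversed to 0.60 (0.059 after rescaling). The cause was not tested. The number of called members moved by over 1.5 times in these cases: with the covariate and no series term, SHEP had 1 lower, and with the covariate 1 slope was called in each of SHEP MYC-OFF (NOTCH2) and SKNAS MYC-ON (JAG2). In SKNAS libraries with a median of at least 3.8, 2 were called (2 higher and 0 lower by limma, 3 lower at an unadjusted p under 0.05). That fit held 13 libraries, but its changes rest on CT32 and CT44, the only CTs with both states. With series means as replicates, SHEP had 2 called, HES1 1 higher and MAML2 1 lower. That fit did not pair the states within a series, so a gene that differed in level between the series, as NOTCH2 did, was hard to call. Leaving out 1 library at a time gave 3 to 5 called in SHEP and 7 in SKNAS. Without replicate 2, 1 slope was called in SHEP MYC-OFF. The replicate block kept 3 higher and 2 lower in SHEP and changed no call of a member.
Calls over all genes moved more. SKNAS had 1903 higher and 4772 lower genes, with 3833 higher after rescaling, 3924 higher with the covariate, and 455 higher and 799 lower in the libraries with a median of at least 3.8. The difference between lines went from 2155 larger and 6064 smaller in SKNAS to 4007 larger and 3995 smaller once rescaled, 3629 larger and 3149 smaller given the covariate, 3639 smaller without replicate 1, and 1417 larger and 3630 smaller without replicate 2. In MYC-ON, 8967 genes were lower in SKNAS, and 5599 with the covariate. Called slopes went from 2270 to 248 in SHEP MYC-OFF without replicate 1, from 0 to 1 without a filter, 6 after rescaling and 12 with the covariate in SKNAS MYC-OFF, and from 15 to 171 with the covariate in SKNAS MYC-ON. Called rhythms in SHEP MYC-OFF went from 9 to 15 with a pseudocount of 0.1 and to 0 without either replicate, and in SHEP MYC-ON from 2 to 1 without a filter and to 0 without either replicate. TPM gives no depth, so counting error could not be estimated, and with 1 SKNAS series the spread between cultures of that line was not measured.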
